A study of Mus musculus with 4 samples.

Results

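Translation factor genes were examined in a list of 7484 enriched chromatin regions (peaks) from mouse striatum. Every protein-coding gene of the RefSeq annotation of GRCm38 whose symbol is Eif or Eef followed by a digit was taken, which gave 71 genes of 21887. A gene was marked when the summit of a peak, its highest point, lay inside the gene's span or within 30 kb of it. The marks were thus chosen by the measured peaks themselves, and the counts of marked genes, the distances and the peak heights below are descriptions with no test. The chromatin came from the striatum of animals that carry Gad2-Cre, a Cre driver of GABAergic neurons, and a Thra-GS allele, which per the title gives a GS-tagged TRα1, the alpha 1 receptor of thyroid hormone. The series has 3 immunoprecipitated (IP) fractions recovered on beads coated with IgG, and 1 input taken with no antibody; all 4 libraries share the tissue. The age of the animals, a hormone treatment, and whether the fractions came from separate animals are not stated in the labels. The 4 libraries stand behind 1 common list of peaks, so no value per library and no spread between fractions can be given, and an IP from animals without the tag was not analysed here. Expression was not measured, and markers of striatal cell types were not used to check the tissue.

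Protein synthesis starts when initiation factors bring the small ribosomal subunit, the initiator tRNA and the messenger RNA together, and it goes on when elongation factors deliver aminoacyl-tRNAs and move the ribosome along. Factor eIF2 carries the initiator tRNA, eIF2B recharges eIF2 with GTP, eIF3 is the large scaffold on the small subunit, and the eIF4 proteins bind the cap and unwind the messenger RNA. Control is exerted by kinases that phosphorylate eIF2, by proteins that sequester the cap-binding protein, and by the kinase of the elongation factor eEF2. In neurons these controls are known to act at synapses in plasticity. The thyroid hormone receptor is known to bind DNA hexamers related to AGGTCA, often as a direct repeat with a spacer of 4 bases.

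Peaks at promoters of these genes, or at promoters next to them, can be shown with their sequence where a peak overlapped an annotated promoter window of 300 bases, 250 before a transcript start and 50 after it (RefSeq, GRCm38.p6). Such overlap was found for 8 windows and 6 peaks, and the summit lay in the window in 3. AGGTCA on either strand was in 3 of the 8 windows, those of Banf1, Aimp2 and Pms2, where Aimp2 and Pms2 hold the same site; the windows of Eif4g1, Vamp4 (a pair), Iqcc and BC029722 did not hold it. The windows printed are Eif4g1, where the peak lies at the factor gene's own start, and 1 for each of the 2 sites, so they are not a sample of all 8. At Eif4g1, which encodes the scaffold of the cap-binding complex, the summit itself lay in the window chr16:20672477-20672776 on the plus strand, and 282 of the 300 bases were covered by the peak. Capitals mark 11 bases centred on the summit:
Eif4g1: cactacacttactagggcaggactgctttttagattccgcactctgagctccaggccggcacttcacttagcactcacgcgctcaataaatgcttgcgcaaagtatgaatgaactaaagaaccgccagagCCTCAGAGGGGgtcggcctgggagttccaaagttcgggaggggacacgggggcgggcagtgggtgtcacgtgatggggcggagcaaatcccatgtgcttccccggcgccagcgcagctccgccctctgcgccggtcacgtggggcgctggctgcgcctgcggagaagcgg
At Eif1ad, which encodes a protein with an eIF1A-like domain, the summit lay 201 bp inside the gene and in the window of its divergent neighbour Banf1, a chromatin-binding protein gene, at chr19:5366827-5367126 on the minus strand. Capitals mark the reverse complement of AGGTCA, 89 bp from the summit and within the peak:
Banf1: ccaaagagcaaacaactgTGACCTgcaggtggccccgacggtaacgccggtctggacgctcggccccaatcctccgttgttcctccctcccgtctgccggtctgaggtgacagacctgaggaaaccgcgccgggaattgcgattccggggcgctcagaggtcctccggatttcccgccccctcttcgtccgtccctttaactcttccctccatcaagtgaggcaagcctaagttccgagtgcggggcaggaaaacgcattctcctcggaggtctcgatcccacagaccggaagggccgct
Beyond Eif2ak1, an eIF2 kinase gene, a peak covered 108 bases of the window of Aimp2, a scaffold gene of the aminoacyl-tRNA synthetase complex, at chr5:143909790-143910089 on the minus strand, with the summit 40 bp outside that window. Capitals mark AGGTCA, 128 bp from the summit and within the peak:
Aimp2: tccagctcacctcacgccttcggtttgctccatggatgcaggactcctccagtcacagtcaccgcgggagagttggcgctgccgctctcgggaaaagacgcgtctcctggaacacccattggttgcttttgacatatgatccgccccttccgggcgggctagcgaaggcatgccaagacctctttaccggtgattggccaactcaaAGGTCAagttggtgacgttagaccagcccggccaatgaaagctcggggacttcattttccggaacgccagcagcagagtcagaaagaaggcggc
The window of Eef2, chr10:81176381-81176680 on the plus strand, is the promoter nearest to the strongest peak of all the factor genes, and that peak ended 1226 bp before the annotated gene start. Capitals mark TATAAA and TGACGTCA, letters that were picked after this window had been read:
Eef2: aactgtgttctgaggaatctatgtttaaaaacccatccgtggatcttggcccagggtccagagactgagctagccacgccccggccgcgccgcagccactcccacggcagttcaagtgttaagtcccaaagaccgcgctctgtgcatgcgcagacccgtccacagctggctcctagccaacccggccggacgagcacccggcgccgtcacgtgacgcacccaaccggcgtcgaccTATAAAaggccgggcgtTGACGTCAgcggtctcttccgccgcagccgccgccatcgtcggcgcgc

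Among the 70 promoter windows on file for 55 of the 71 genes, AGGTCA on either strand was found in 5 (7.14%, 95% exact interval 2.36 to 15.9), against 14.7% of 21263 windows of protein-coding genes. These 5 windows belong to Eif2b2, Eif2s3x, Eif4enif1 and Eif5a, and none of those windows was overlapped by a peak. The variant AGGACA was found in 6 windows (8.57%, 3.21 to 17.7), against 18.7% of all windows, which lay above that interval. In the first 250 bases it was again 8.57%, against 15.9% of all windows, which lay inside the interval. This contrast was not tested. The direct repeat of AGGTCA with 4 bases of any kind between its copies was found on either strand in 0 of the 70 and in 0 of the 21263 windows. With 0 in both, this exact match could not set factor genes apart from other genes. Looser forms of the repeat were not searched. In the Eef2 window, TATAAA was shared with 12.6% of all windows and TGACGTCA with 2.23%. Such matches describe the letters only, and windows of 1 gene can overlap each other.

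Of the 71 factor genes, 27 were marked, 38.0% (95% exact interval 26.8 to 50.3), and 32.4% of all protein-coding genes were marked by the same window. The factor genes' share was therefore near the background, which lay inside their interval. Their spans had a median length of 15.3 kb, against 17.2 kb for all protein-coding genes. The 27 genes were linked to 42 peaks in 43 pairings of a gene with a peak, since 1 peak marked both Eif4g1 and Eef1akmt4-ece2, a readthrough of 2 neighbouring genes. In 16 genes there was 1 peak, in 7 there were 2, in 3 there were 3, and Eif3i had 4. Thus 11 of the 71 factor genes had 2 or more peaks, beside 2380 of the 21887 protein-coding genes. For 3 or more peaks it was 4 of 71, beside 909 of 21887. Per Mb of extended span there were 7.14 pairings, against 4.72 over all protein-coding genes, and this contrast was not tested. A peak with a fold enrichment of at least 10 was in the window of 9 factor genes, 12.7% (5.96 to 22.7), against 10.5% of all protein-coding genes. None of the 3 factor genes on the X and Y chromosomes, Eif1ax, Eif2s3x and Eif2s3y, was marked. The share of all genes on these chromosomes was not computed, and 3 genes are too few to read as a pattern. For Eif2s3y the nearest summit on its chromosome was 89722176 bp away.

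Shares by factor group ran from 29.8% to 66.7%, with intervals that overlapped widely. Initiation factor subunits were marked in 14 of 47 genes, 29.8% (17.3 to 44.9). Among the regulators of initiation it was 6 of 9, 66.7% (29.9 to 92.5). Their genes were longer, with a median span of 32.1 kb against 17.4 kb for the subunits. Groups were set by gene symbol, and Eif5a was counted with the subunits. The regulators are the eIF2 kinases, the Eif4ebp genes, Eif4enif1 and Eif1ad, which was placed there for its eIF1A-like domain and not for a known regulatory role. Elongation factors were marked in 3 of 7 genes (42.9%, 9.90 to 81.6), and the methyltransferases and the kinase that modify them in 4 of 8 (50%, 15.7 to 84.3). Without the readthrough gene Eef1akmt4-ece2, marked only by the peak at the start of Eif4g1, the share of these modifiers was also 42.9% (9.90 to 81.6). Longer genes have wider windows, and the part of gene length in these shares was not tested.

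**Figure D1:**
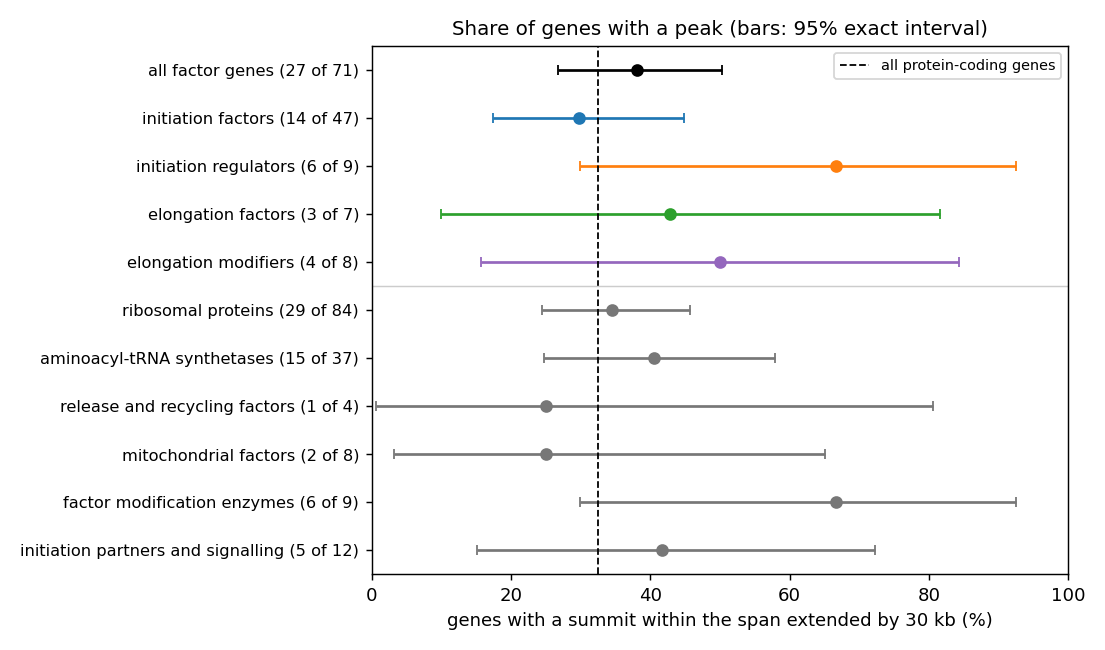
Share of genes with a summit in the window, in percent on the horizontal axis, for the factor genes, their 4 groups and 6 other lists of translation genes; points are shares, bars are 95% exact intervals, and the dashed line is the share of all protein-coding genes. The bars of all 11 rows cross the dashed line at 32.4%.

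Most summits at factor genes lay outside the genes. Of the 43 pairings, 7 had the summit inside the factor gene's span, 16.3% (6.81 to 30.7), against 40.9% of the 11161 pairings of all protein-coding genes. In 23 pairings, 53.5%, the summit lay 10 to 30 kb away, against 35.8%. A longer gene fills more of its window, so both shares depend on gene length, which was not matched between the sets. The part of gene length in these contrasts was not tested. Within 1 kb of either end of the gene lay 5 summits, 11.6% (3.89 to 25.1), close to the 13.5% of all pairings. The factor gene was the nearest protein-coding gene in 15 pairings, 34.9%, against 55.6% over all genes, and 11 of the 27 marked genes were the nearest gene to at least 1 of their peaks. Another gene's span held the summit of 19 of the 42 peaks. Direction of transcription was known for 26 pairings, of which 11 lay upstream of the factor gene, 6 inside and 9 downstream. Neither this split nor the share of summits in another gene's span was computed over all protein-coding genes.

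Median peak heights at factor genes were close to those at other genes. The pileup, the height of stacked fragments at the summit after the peak caller's scaling, had a median of 24.4 (95% exact interval of the median 20.7 to 30.1) over the 42 peaks, against 21.6 over the 6100 peaks within 30 kb of any protein-coding gene. The fold enrichment, the authors' ratio of pileup to local background with 1 added to both, had a median of 7.51 (6.35 to 9.14), against 6.91. Of the 42 peaks, 11 had a fold of 10 or more, 26.2%, as did 23.7% of the 6100. In units of 1 pileup step, 0.939, the fragment count at the 42 summits ran from 14 to 165, with 26 as the median. Median pileup was 24.4 for initiation factors, 27.2 for their regulators, 34.7 for elongation factors and 22.5 for elongation modifiers, over 25, 8, 5 and 5 peaks. The 34.7 is the value of a peak within 30 kb of Eef2 whose summit lay inside its neighbour Dapk3.

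**Figure D2:**
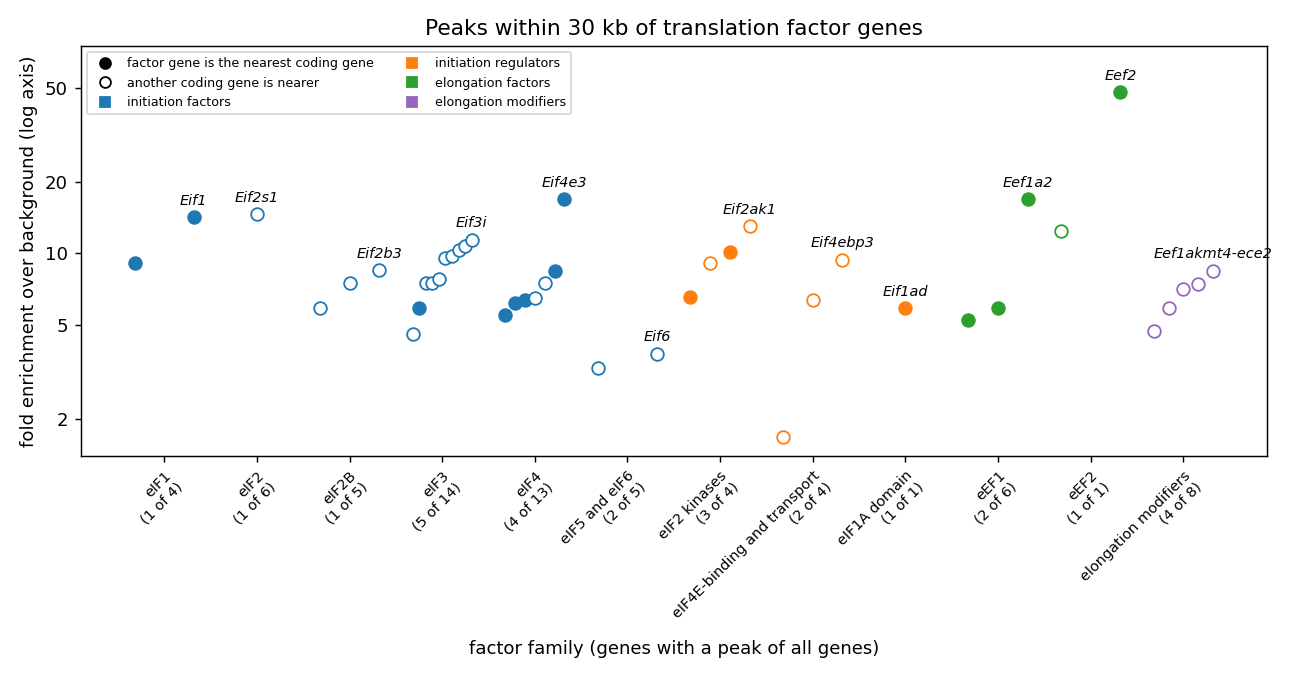
Fold enrichment of each peak (log axis) by factor family, with the genes marked and all genes of the family under each name; a filled point means that the factor gene is the nearest protein-coding gene, and the top gene of each family is named. The Eef2 peak stands at 47.8, and the others range from 1.68 to 16.9.

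Among the elongation factors, Eef2 had the strongest peak of all 71 genes. Eef2 (NCBI gene 13629) encodes the GTPase that moves the ribosome by a codon, and it spans chr10:81176631-81182509 on the plus strand. The peak, at chr10:81174865-81175405, was 541 bp wide with its summit 1479 bp upstream of the gene start. It lay in the 8911 bp between the span of Pias4, whose direction of transcription was not on file, and the start of Eef2. Its pileup was 155, which is 165 fragments (95% exact Poisson interval 141 to 192), over a background of 2.26. The fold of 47.8 ranked 5 in the list of 7484, and 1 peak within 30 kb of a protein-coding gene had a higher fold. In pileup it was the highest of the 6100 peaks near protein-coding genes, ahead of a peak of 153, and it ranked 14 in the whole list.

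Around Eef2 there were 4 peaks within 100 kb of the gene, and this one was 3.86 times as high in fold as the next. The second peak, with a fold of 12.4 and a pileup of 34.7 (37 fragments, 26.1 to 51.0), lay inside Dapk3, a death-associated kinase gene, at 947 bp from its far end and 17098 bp from the first summit. A peak of fold 6.91 lay in Map2k2, the MEK2 kinase gene, 338 bp from its start, and a peak of fold 4.90 lay in Zfr2, a zinc finger RNA-binding protein gene. The strong summit was within 30 kb of 6 of the 14 protein-coding genes in this stretch. Its distance was 7432 bp to Pias4, a SUMO ligase gene, 7835 bp to Dapk3 and 22930 bp to Zbtb7a, a transcriptional repressor gene. It was 23018 bp from Nmrk2, a nicotinamide riboside kinase gene, and 29352 bp from Atcay, which encodes the neuronal protein caytaxin. Thop1, Creb3l3, Map2k2, Zfr2, Matk, Mrpl54, Apba3 and Tjp3 were 50455 to 98036 bp from it. Eef2 was thus the nearest gene, and it is followed by Dapk3 at a gap of 478 bp.

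**Figure D3:**
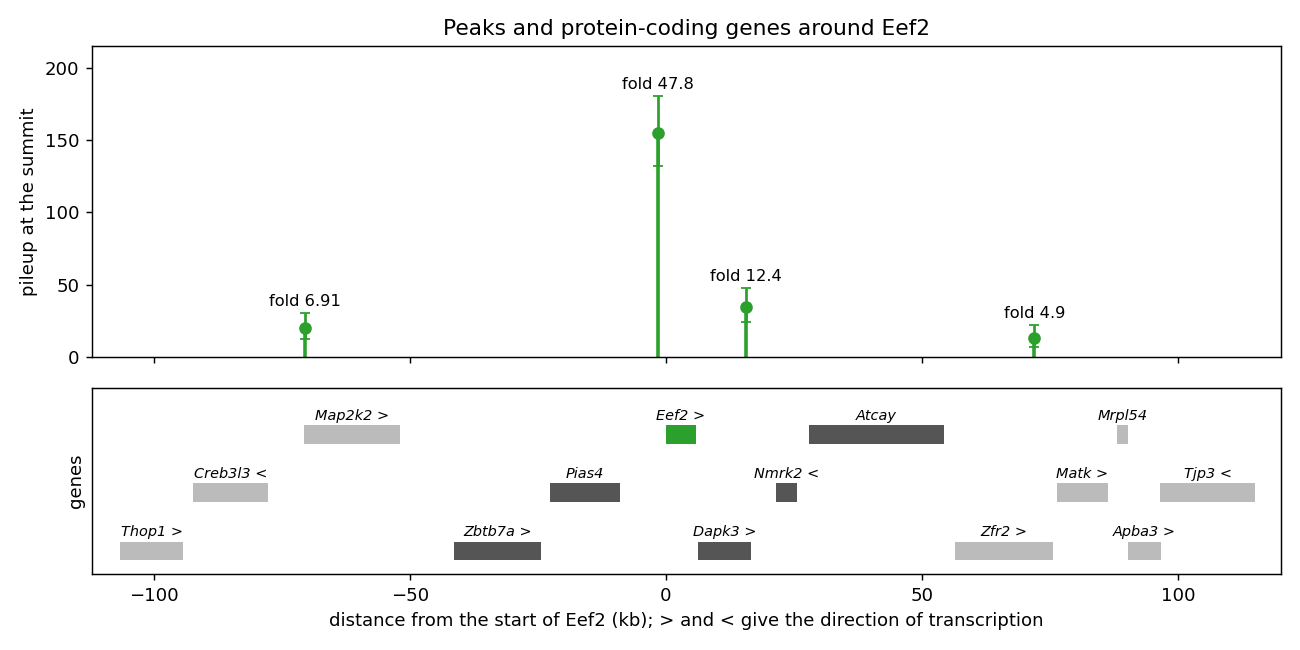
Upper panel: pileup at the summit of the 4 peaks within 100 kb of Eef2 against distance from the Eef2 start in kb, with 95% exact Poisson intervals of the fragment count and the fold written above. Lower panel: protein-coding genes, Eef2 in green, those within 30 kb of the strong summit in dark grey, the rest in light grey; the strong peak lies just before Eef2 with a pileup of 155, and the others are at 34.7 or below.

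The eEF1 genes encode eEF1A, which delivers aminoacyl-tRNA to the ribosome, and its partners. Of these 6 genes, 2 were marked (33.3%, 4.33 to 77.7), beside 32.4% of all protein-coding genes. Eef1a2, the eEF1A form known from neurons and muscle, had 2 peaks inside its span on chromosome 2. The higher one, at chr2:181147184-181147756, reached a pileup of 49.8 (53 fragments, 39.7 to 69.3) at a fold of 16.9 and lay 5664 bp from the nearer gene end, and the lower one had a fold of 5.87 at 963 bp from the gene's far end. Its paralog Eef1a1, the widely expressed form, had no peak in the window. Eef1g, a subunit of the exchange factor of eEF1A, had a peak of fold 5.21 at 412 bp outside the gene, with 18 fragments. The other exchange factor subunit genes Eef1b2 and Eef1d had none, nor had Eef1e1, which encodes a partner of the tRNA synthetase complex.

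Enzymes that modify elongation factors had no summit inside their span or within 10 kb of it. The share of all genes for 10 kb was not computed. With 5 kb on both sides, 0% of these 8 genes were marked (0 to 36.9), beside 19.1% of all protein-coding genes, which lay inside that interval. Eef2k, the kinase that phosphorylates eEF2, had a fold of 7.06 at 11470 bp upstream, inside the predicted gene Gm5737. Eef1akmt1, a lysine methyltransferase gene of eEF1A, had folds of 7.43 and 4.71, both in Il17d. Eef1aknmt had 5.88 at 21950 bp, and that summit was 24 bp from Vamp4, a vesicle fusion gene. The readthrough gene Eef1akmt4-ece2 was marked only by the peak at the start of Eif4g1, with a fold of 8.46 at 26697 bp. Eef2kmt, Eef1akmt2, Eef1akmt3 and Eef1akmt4 had no peak in the window.

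The peaks of Eif1, Eif2s1 and Eif2b3 belong to the core of initiation. Eif1, which encodes the factor that guards start codon choice, had folds of 14.2 at 24472 bp and 9.12 at 3585 bp, both upstream, and it was the nearest protein-coding gene to both. Eif2s1, the alpha subunit of eIF2 that stress kinases phosphorylate, had a fold of 14.6 with 47 fragments (34.5 to 62.5) at 25298 bp downstream, and Plek2 was nearer to it at 5136 bp. Eif2b3 had 3 peaks with folds of 8.47, 7.50 and 5.87, all outside its span, and the summit of 7.50 lay inside Hectd3. In the eIF2 family 1 of 6 genes was marked, 16.7% (0.421 to 64.1), and in eIF2B 1 of 5, 20% (0.505 to 71.6). In eIF1 it was 1 of 4, 25% (0.631 to 80.6). The 32.4% of all protein-coding genes lay inside each of these intervals. Eif2s2, Eif2a, Eif2d, Eif1b, Eif1a, Eif2b1, Eif2b2, Eif2b4 and Eif2b5 were without a peak.

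The eIF3 scaffold was marked in 5 of 14 subunit genes, 35.7% (12.8 to 64.9), beside 32.4% of all protein-coding genes. Of its 10 peaks, 1 had the subunit gene as its nearest gene, beside 55.6% of the pairings over all genes. That peak, at Eif3g, had a fold of 5.87 at 3102 bp upstream. Eif3d had 3 peaks, with folds of 10.7, 10.3 and 9.58, which were nearest to Cacng2, Txn2 and Foxred2 in turn. Eif3i had 4 peaks in a run beyond its upper end, from 15444 to 24286 bp, with folds of 4.58, 9.78, 11.4 and 7.50. Their summits lay in Iqcc for the first pair and in or beside Ccdc28b for the others. Eif3b had 7.52 at 21890 bp, and Eif3j2 had 7.79 at 29840 bp. Eif3a, Eif3c, Eif3e, Eif3f, Eif3h, Eif3j1, Eif3k, Eif3l and Eif3m were unmarked.

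The eIF4 family, which handles the cap and the helicase, was marked in 4 of 13 genes. This is 30.8% (9.09 to 61.4), beside 32.4% of all protein-coding genes. Eif4e3, which encodes a less studied cap-binding protein, had 3 peaks and was nearest to each. Their folds were 16.9 at 7201 bp beyond the gene, 6.35 at 15712 bp and 5.49 inside it, and their pileups were 47.9, 24.4 and 16.0. Neither Eif4e nor Eif4e2, the other widely known members, was marked. Eif4g1 had a fold of 8.46 at 108 bp upstream of the gene start, the promoter peak printed above, with a pileup of 49.8 over a background of 5.0. The pileup equals that of the Eef1a2 peak, whose fold was 16.9 over a background of 2.0. A further Eif4g1 peak of 6.47 lay in Fam131a. Eif4g3 had a fold of 6.20 inside its long span, and Eif4b, a helicase cofactor gene, had 7.53 at 12069 bp, inside Tns2. The helicase genes Eif4a1, Eif4a2, Eif4a3 and Eif4a3l1 had no peak, nor had Eif4g2, Eif4h and Eif4e1b.

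Eif5a, which encodes a factor that carries the modified amino acid hypusine, had a fold of 3.30 at 12378 bp upstream, with Ybx2 nearer to it. Eif6, an anti-association factor gene of the large subunit, had 3.77 at 689 bp, inside BC029722. Eif5, Eif5a2 and Eif5b were unmarked.

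**Figure D4:**
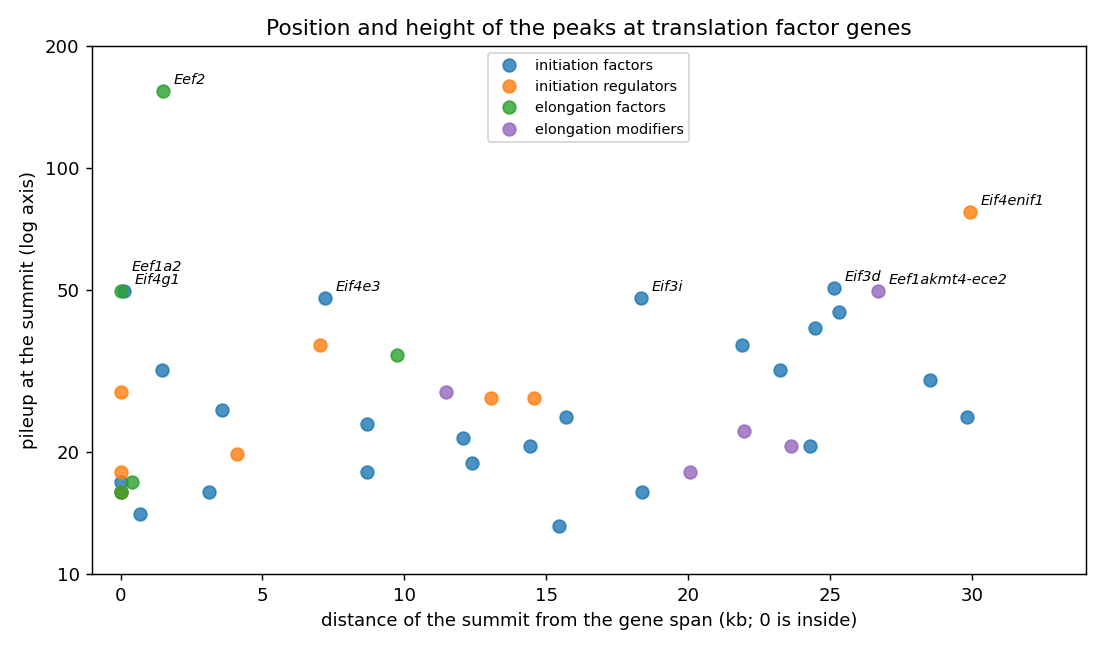
Pileup at the summit (log axis) against the distance of the summit from the gene span in kb, where 0 is inside, for the 43 pairings coloured by group; genes with a pileup above 45 are named. Eef2 stands at 155, 1479 bp from its gene, and most other points lie below 50 at all distances.

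Of the 4 kinases that phosphorylate eIF2, 3 were marked, 75% (19.4 to 99.4) beside 32.4% of all protein-coding genes, and a peak lay inside 2 of them. Eif2ak3, the kinase gene of endoplasmic reticulum stress known as PERK, had a fold of 10.1 inside its span, 18534 bp from the nearer end, with 30 fragments (20.2 to 42.8). Eif2ak4, the amino acid sensing kinase gene, had 6.52 inside its span and 9.14 at 14551 bp upstream, the latter in Gpr176. Eif2ak1, the heme-regulated kinase gene, had 13.0 at 7033 bp downstream, a peak that overlapped the Aimp2 window printed above and that of its divergent neighbour Pms2. Eif2ak2, the kinase gene of double-stranded RNA, had no summit nearer than 49673 bp. The spans of these 4 genes had a median length of 72.8 kb.

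Among the genes of proteins that bind the cap-binding factor, Eif4ebp3 had folds of 9.41 and 6.35 on chromosome 18, nearest to Slc35a4 and to Sra1. Eif4ebp1 and Eif4ebp2 had none. Eif4enif1, the transporter gene of eIF4E, was marked by a fold of 1.68 at 29936 bp, inside Sfi1. That peak had a pileup of 77.9 over a background of 46.0, the highest background of the 42 peaks. With peaks left out where the background exceeded 4 times the list's minimum, 26 of the 71 genes were marked.

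**Figure D5:**
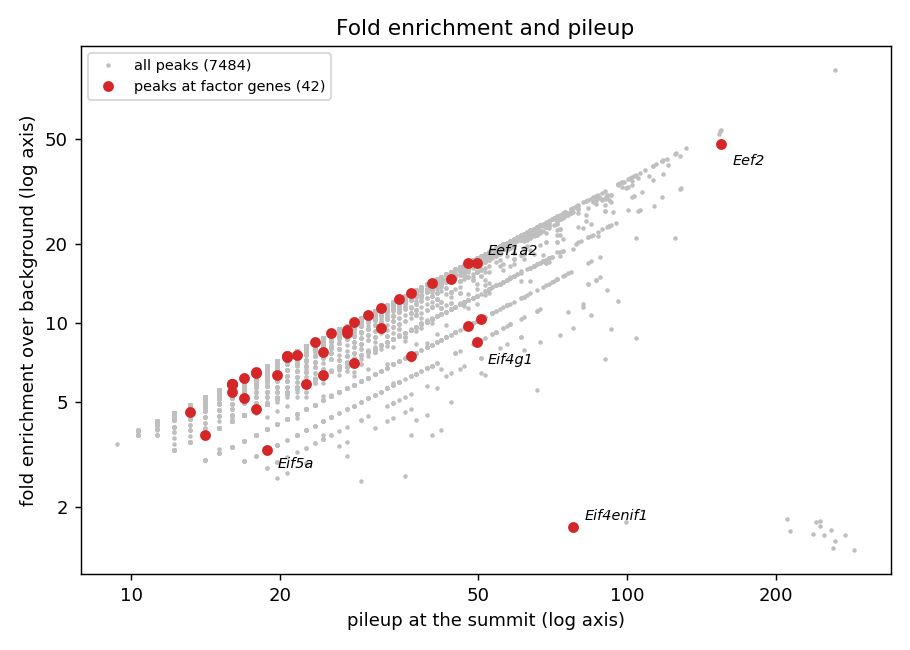
Fold enrichment against pileup at the summit, both on log axes, for all 7484 peaks in grey and the 42 peaks at factor genes in red. Many red points follow the upper edge, where the background is lowest; Eef2 is near the top at a fold of 47.8, and Eif4enif1 lies apart at a fold of 1.68.

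The window of 30 kb placed Eif4enif1 at 29936 bp and Eif3j2 at 29840 bp just inside. Just outside were Eef1akmt3, with a peak of fold 16.3 at 36452 bp, and Eif2b2, with 5.55 at 43862 bp.

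Other genes of protein synthesis were marked in 58 of 154, 37.7% (29.99 to 45.8), so their share too was near the 32.4% of all protein-coding genes. Ribosomal protein genes reached 29 of 84, 34.5% (24.5 to 45.7). Their highest pileups were 121 for Rpl15, where the clock repressor gene Nr1d2 was nearest, 93.0 for Rpl18, where the clock output gene Dbp was nearest, and 65.7 for Rpl24, inside the gene itself. Aminoacyl-tRNA synthetase genes reached 15 of 37, 40.5% (24.8 to 57.9). Folds were 22.8 for Yars, 23.4 for Pars2 and 17.5 for Eprs, the last inside the gene. S100pbp was nearer to the Yars peak, and Ttc22 was nearer to the Pars2 peak. The list of factor modification enzymes, which also holds the elongation factor gene Eefsec, reached 6 of 9, 66.7% (29.9 to 92.5). Eefsec, which encodes the factor that delivers selenocysteine tRNA, had a fold of 11.5 inside it. Dph3 of the diphthamide pathway of eEF2 had 14.0, and Dohh of the hypusine pathway of eIF5A had 10.04. The Dohh peak lay 25636 bp from that gene, and Nfic was nearest to it. Initiation partners and their signalling genes reached 5 of 12. There Rptor, the mTOR complex scaffold gene, had 5 peaks of up to 8.0 in fold. Mknk2 had 5.08, where Btbd2 was nearest, and Pdcd4 had 5.18, where Rbm20 was nearest. Mitochondrial factor genes reached 2 of 8, Mtif2 with 9.21 and Mtrf1 with 5.34, and release factor genes 1 of 4, Etf1 with 7.22. Clhc1 was nearer to the Mtif2 peak, and Kbtbd7 was nearer to the Mtrf1 peak.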

How the data were processed

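The series holds 3 IP fractions and 1 input of striatum, grouped by their titles, and 1 peak list. Per the submitters' processing notes, tools were MACS2 (2.1.1.20160309.0) and Bowtie2 (2.3.4.2) and builds GRCm38 and mm10, listed without roles; in the sources used here, settings and any pooling of fractions are not given. The authors deposited the pileup signal at each summit and the fold enrichment, a linear ratio. Columns of p-values and q-values are on a −log10 scale, per the file headers and ranges. Scores are the authors' own. Background was recovered as (pileup + 1) / fold − 1, and fragments as pileup over its step of 0.939. Library depth was not used here.

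Genes came from RefSeq GRCm38.p6, and strand from its promoter table, which matched 55 of 71 members. Pairing was tested on simulated data. Python 3.11.15, pandas 2.3.3 and scipy 1.17.1 were used. Shares carry 95% exact (Clopper-Pearson) intervals, medians exact binomial and fragments exact Poisson intervals; these cover counting error only, and PCR copies are not independent molecules. In the ribosomal list, kinases and relatives whose symbols only begin alike were left out by name. Every marked member is named; of the other lists, the 3 with the highest pileup. Members and lists were chosen with earlier results of these data known.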

Additional observations from a re-analysis of the deposited data

How the results depend on the processing

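The share of factor genes marked was 19.7% for the span with 5 kb on both sides, 8.45% for the span alone, 53.5% with 100 kb and 15.5% when a peak marked only its nearest protein-coding gene, where all protein-coding genes had 19.1%, 13.7%, 54.1% and 18.7%. In each of these settings the share of all genes lay inside the factor genes' interval. With a −log10 q of at least 10, or above the median fold, it was 26.8% in both, against 20.4% and 19.5% of all genes. Initiation factors gave 14.9% with 5 kb, 4.26% for the span and 10.6% by nearest gene, and elongation modifiers gave 0% in these 3 settings and 87.5% with 100 kb. Regulators and elongation factors stayed within their intervals.

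Summits inside the gene made up 46.7% with 5 kb, 46.7% by nearest gene and, by construction, 100% for the span alone, and 8.24% with 100 kb, 7.41% at −log10 q of at least 10 and 7.69% above the median fold. Those within 1 kb of a gene end made up 33.3%, 26.7% and 28.6% with 5 kb, by nearest gene and for the span alone, 3.70% at −log10 q of at least 10 and 3.85% above the median fold. Neither share was computed over all protein-coding genes in these settings. The values can therefore not be set against the 40.9% and 13.5% of all genes, which hold for 30 kb. Median pileup was 17.8 with 5 kb, 16.9 for the span, 31.0 at −log10 q of at least 10 and 31.9 above the median fold. The other translation genes gave 20.1%, 9.74%, 66.9%, 18.2% and 17.5% with 5 kb, the span, 100 kb, −log10 q of at least 10 and above the median fold. With 100 kb their interval was 58.85 to 74.25, and the 54.05% of all protein-coding genes lay below it, a contrast that was not tested. In the other settings the share of all genes lay inside their interval.

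Leaving out the 1% highest pileups and the 1% widest peaks removed the strong Eef2 peak and kept 27 marked genes. The settings on background and on the readthrough gene were chosen after seeing the data, and each left 26 genes marked. In all, 66 of 112 recomputed values stayed within the interval of their first value and 46 did not. No paired analysis was possible because the list holds no value per library. Shares of groups of 4 to 14 genes have intervals too wide to order them.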
